A study of Mus musculus with 6 samples.

Results

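Nuclear genes of the respiratory chain were examined for open chromatin in long-term haematopoietic stem cells of aged and of young C57BL/6 mice. The assay was ATAC-seq, in which a transposase inserts sequencing adapters where DNA is exposed, and a peak marks a stretch of open chromatin. The genes were chosen by symbol alone: protein-coding genes on chromosomes 1 to 19 whose symbol starts with Nduf, Uqcr or Atp5, that are Sdha, Sdhb, Sdhc or Sdhd, or that start with Cox4, Cox5, Cox6, Cox7 or Cox8. This rule gave 93 of 20665 protein-coding genes on these chromosomes. They comprise 39 subunit genes of complex I (named as such by symbol), 8 assembly factor genes of complex I, 4 genes of complex II, 8 of complex III, 17 of complex IV and 17 of ATP synthase. A gene was called in a list when a distinct peak overlapped the window of 1 kb on each side of either end of the gene. The gene then received the percentile of its strongest such peak, which is the rank of the deposited -log10 p among all distinct peaks of the same list.

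There were 3 aged and 3 young samples, with 1 peak list each. All 6 were sorted from bone marrow of the C57BL/6 strain as lineage-negative cells with Kit and Sca1 and without Flk2 and Cd34; both ages were kept overnight at 3% oxygen, and cells without that culture were not analysed here. The labels give neither the ages nor the sex of the mice, nor whether the 3 samples of an age are different animals, so their spread may be technical. Distinct peaks ranged from 129137 to 244692 per aged list and from 110596 to 263956 per young list, and the read depth behind them is unknown. Of 12 stem-cell marker genes, 5 (Kit, Procr, Hlf, Meis1 and Fgd5) were called in all 6 lists, against 35.9% of all protein-coding genes. Slamf1 was called in 1 list. Gata2 was called in the 3 young lists alone, a pattern of 0.3% of all genes, at percentiles of 47.0, 80.3 and 47.2. A difference with age at Gata2 was not tested. Cd34 was called in 5 lists and Flt3, which encodes Flk2, in 4, although the sort took cells without either protein. Markers of myeloid cells were called in all 6 lists for 1 of 8 genes (Mpo), and those of lymphoid and erythroid cells for 0 of 6 and 0 of 5.

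As background, the respiratory chain sits in the inner mitochondrial membrane. Complexes I and II take electrons from NADH and succinate, complex III passes them to cytochrome c, complex IV hands them to oxygen, and ATP synthase uses the resulting proton gradient to make ATP. Most subunits are made from nuclear genes that are active in nearly every cell, but several complex IV subunits also have isoforms made mainly in heart and skeletal muscle, testis or lung. Quiescent stem cells are known for relying largely on glycolysis, and they need respiration when they leave quiescence.

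Promoter sequences are shown for isoform pairs because the contrast between them runs through the results, for Cox5a because its annotated end lies away from its promoter, and for Sdhb and Atp5j because they carry several of the searched motifs. Each runs from 250 bases before to 50 bases after the transcription start, 5′ to 3′ on the gene's strand, as given by RefSeq for GRCm38.p6, the assembly that mm10 names. Capitals mark matches on either strand to any of 6 motifs, none of which contains another. The motif of ETS factors, GABP among them, was searched as CCGGAAG. The core of the NRF1 site was searched as GCATGC. For YY1 the letters were AAGATGG. For SP1 they were GGGCGG. The TATA box was searched as TATAAA. For NF-Y the letters were CCAAT.
Cox8a, ubiquitous, chr19:7217567-7217866, minus strand: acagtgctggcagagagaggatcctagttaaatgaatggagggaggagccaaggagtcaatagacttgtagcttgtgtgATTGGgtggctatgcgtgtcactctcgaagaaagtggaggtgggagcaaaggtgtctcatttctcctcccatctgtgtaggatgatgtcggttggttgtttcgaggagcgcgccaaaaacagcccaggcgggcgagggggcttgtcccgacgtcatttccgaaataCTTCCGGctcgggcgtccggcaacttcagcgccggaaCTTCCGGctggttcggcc
Cox8b, heart and muscle, chr7:140900397-140900696, minus strand: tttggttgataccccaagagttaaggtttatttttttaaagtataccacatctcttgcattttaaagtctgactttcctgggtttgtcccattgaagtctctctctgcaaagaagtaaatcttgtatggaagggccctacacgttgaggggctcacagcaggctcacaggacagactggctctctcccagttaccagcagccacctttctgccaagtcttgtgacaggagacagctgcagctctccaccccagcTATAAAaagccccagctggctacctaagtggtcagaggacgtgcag
Cox7a2, ubiquitous, chr9:79759804-79760103, minus strand: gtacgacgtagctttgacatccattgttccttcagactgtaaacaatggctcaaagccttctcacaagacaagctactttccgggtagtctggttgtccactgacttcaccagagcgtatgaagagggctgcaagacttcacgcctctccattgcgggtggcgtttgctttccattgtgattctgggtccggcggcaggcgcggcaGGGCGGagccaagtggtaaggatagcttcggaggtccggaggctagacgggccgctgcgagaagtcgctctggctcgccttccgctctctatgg
Cox7a1, heart and muscle, chr7:30183921-30184220, plus strand: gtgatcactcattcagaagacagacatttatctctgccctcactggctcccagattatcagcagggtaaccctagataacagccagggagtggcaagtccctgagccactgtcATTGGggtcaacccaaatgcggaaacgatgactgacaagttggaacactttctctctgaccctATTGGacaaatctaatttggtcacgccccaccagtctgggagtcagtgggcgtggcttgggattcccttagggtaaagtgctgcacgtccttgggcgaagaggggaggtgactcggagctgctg
Cox6b1, ubiquitous, chr7:30626065-30626364, minus strand: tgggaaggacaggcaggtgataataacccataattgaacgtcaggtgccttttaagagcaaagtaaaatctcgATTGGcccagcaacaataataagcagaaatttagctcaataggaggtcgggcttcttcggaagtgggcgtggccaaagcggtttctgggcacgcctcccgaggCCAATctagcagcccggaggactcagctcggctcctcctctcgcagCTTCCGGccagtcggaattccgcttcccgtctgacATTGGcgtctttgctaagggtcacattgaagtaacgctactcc
Cox6b2, testis, chr7:4753045-4753344, minus strand: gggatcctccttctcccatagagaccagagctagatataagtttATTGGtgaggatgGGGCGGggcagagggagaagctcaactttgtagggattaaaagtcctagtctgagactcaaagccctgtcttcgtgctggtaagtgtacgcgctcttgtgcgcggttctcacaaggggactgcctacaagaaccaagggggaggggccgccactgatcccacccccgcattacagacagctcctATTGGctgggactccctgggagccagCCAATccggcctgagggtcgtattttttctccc
Cox5a, chr9:57520982-57521281, plus strand: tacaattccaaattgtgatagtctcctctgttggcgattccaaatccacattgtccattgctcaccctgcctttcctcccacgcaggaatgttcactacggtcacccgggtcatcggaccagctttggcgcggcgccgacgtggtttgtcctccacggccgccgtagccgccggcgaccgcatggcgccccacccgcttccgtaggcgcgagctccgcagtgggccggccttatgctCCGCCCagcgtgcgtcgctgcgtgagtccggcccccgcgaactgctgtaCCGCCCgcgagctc
Sdhb, chr4:140961021-140961320, plus strand: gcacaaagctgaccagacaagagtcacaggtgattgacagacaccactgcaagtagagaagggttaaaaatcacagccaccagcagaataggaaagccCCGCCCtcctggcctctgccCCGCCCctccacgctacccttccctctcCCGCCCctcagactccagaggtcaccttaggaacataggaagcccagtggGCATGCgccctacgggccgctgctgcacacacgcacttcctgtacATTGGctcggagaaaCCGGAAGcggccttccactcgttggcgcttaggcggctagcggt
Atp5j, chr16:84834927-84835226, minus strand: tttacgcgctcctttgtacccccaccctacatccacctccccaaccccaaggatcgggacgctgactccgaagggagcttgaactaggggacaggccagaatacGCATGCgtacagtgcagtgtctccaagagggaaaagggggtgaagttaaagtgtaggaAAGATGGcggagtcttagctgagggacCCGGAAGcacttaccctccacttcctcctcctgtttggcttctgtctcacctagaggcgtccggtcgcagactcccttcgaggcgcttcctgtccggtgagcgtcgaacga

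The Cox8a promoter held 19 CG dinucleotides and 2 ETS matches in these 300 bases, and that of its muscle counterpart Cox8b held 2 CG dinucleotides, a TATA box and no ETS match. Cox7a2 had 20 CG dinucleotides against 7 in Cox7a1, and Cox6b1 had 17 against 10 in Cox6b2. The Atp5j start shown, one of 2 in the table, carried ETS, NRF1 and YY1 matches together, and its strongest peak was shared with Gabpa, the neighbouring gene that encodes the DNA-binding subunit of GABP. A match is a stretch of letters only, and binding was not measured.

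The question was first how many of these genes had open chromatin at their ends. Most did at both ages. Of the 93 genes, 61 (65.6%) were called in all 6 lists, where 35.9% of all protein-coding genes were. Another 14 were called in 5 lists, 8 in 4 lists, and 10 in fewer. In the single lists, 86, 86 and 69 genes were called in aged replicates 1 to 3 and 87, 69 and 85 in young replicates 1 to 3. The share of all genes called was 69.9%, 65.5% and 54.1% among the aged lists and 70.6%, 55.7% and 65.3% in the young lists. Aged replicate 3 and young replicate 2 were thus the low lists, for these genes and for all genes. A set of 83 of the 93 genes (89.2%) was called in every one of the other 4 lists, against 53.9% of all genes.

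**Figure D1:**
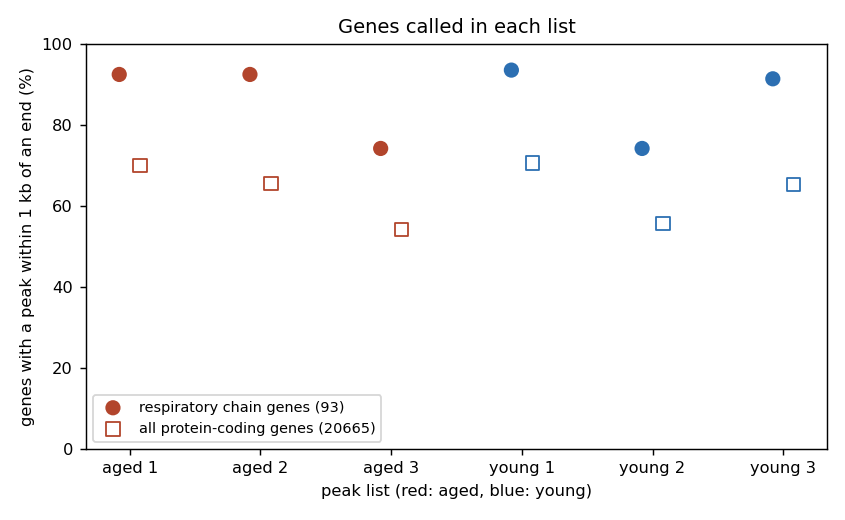
Share of genes with a peak within 1 kb of either end in each of the 6 peak lists, in percent, for the 93 respiratory chain genes (filled circles) and all 20665 protein-coding genes on chromosomes 1 to 19 (open squares). Aged replicate 3 and young replicate 2 are the lowest in both sets, with 69 respiratory chain genes called in each.

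Peaks at these genes ranked high within their lists. The median percentile of the genes called was 97.4, 95.4 and 95.8 among the aged lists and 97.6, 73.1 and 94.7 in the young lists. For all genes called it was 94.5, 93.0 and 93.5 among the aged lists and 95.6, 73.1 and 92.1 in the young lists. Young replicate 2 had 200 different -log10 p values in the whole list (0.785 per 1000 peaks, against 12.3 to 154 in the other lists), so its percentiles fall on a few tied steps such as 22.3, 42.7, 61.5, 73.1 and 88.8. Its percentiles are therefore coarse for every gene below. Between 40 and 63 of the 93 genes had a peak in the strongest 5% of the list in the other 5 lists, and 25 did in young replicate 2. As shares these were 43.0% to 67.7% and 26.9%, where 23.3% to 37.5% and 15.1% of all genes had such a peak.

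**Figure D2:**
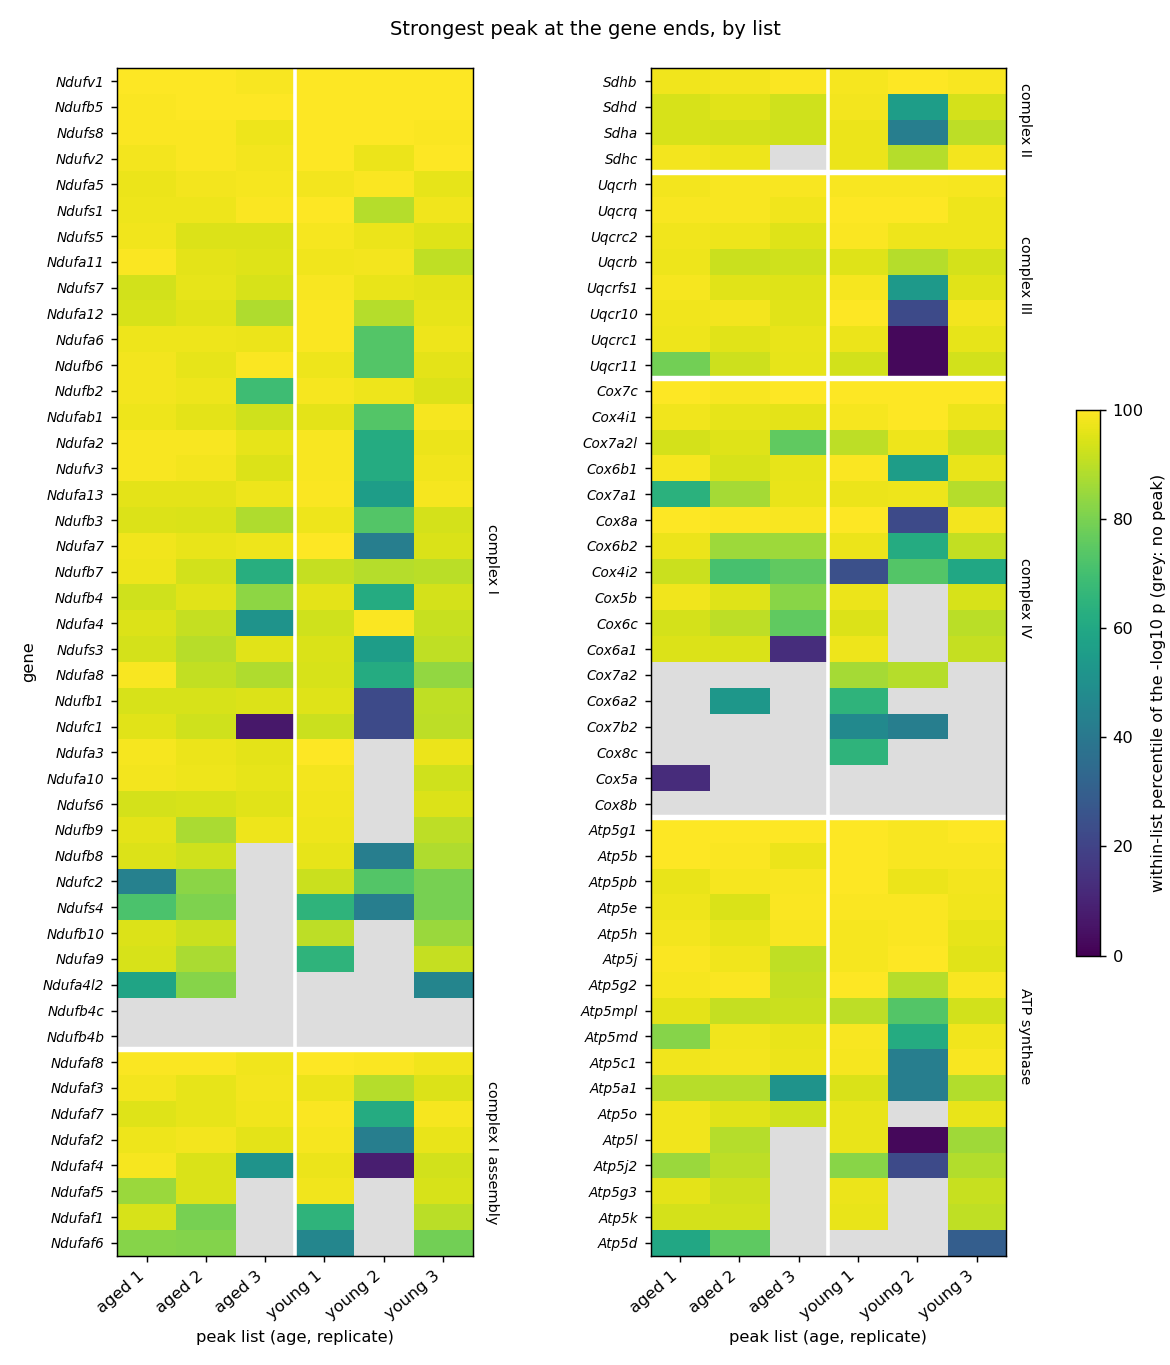
Within-list percentile of the strongest peak at either end of the genes, all but 1 of the 93 being drawn (colour, 0 to 100) in the 6 lists (columns), grouped by complex and ordered by the number of lists called and the mean percentile. Grey cells have no peak; they lie mainly in aged replicate 3, young replicate 2 and the lower part of complex IV.

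Complex I, which oxidises NADH, had 26 of 39 genes called in all 6 lists. The highest mean percentile belonged to Ndufv1, the flavoprotein that receives electrons from NADH. Its percentiles were 99.9, 99.8 and 99.1 among aged and 99.7, 99.9 and 99.9 among young lists, so the ages overlapped. The peak of young replicate 2 there lay at chr19:4012693-4013035, over the transcription start. Ndufb5, an accessory subunit, followed closely, with 99.4, 99.96 and 99.6 among aged and 99.7, 99.96 and 99.7 among young lists. The lowest mean percentile among those called in all 6 belonged to Ndufc1, another accessory subunit, with 95.5, 92.9 and 6.3 among aged and 92.1, 22.3 and 90.1 among young lists. Its low values were again those of aged replicate 3 and young replicate 2. Ndufb4b and Ndufb4c, both under 500 bp long and named as relatives of Ndufb4, were called in 0 lists, while Ndufb4 itself was called in all 6. Reads from near-identical copies may not be placed uniquely, and the sources used here do not say how such reads were treated. Whether Ndufb4b and Ndufb4c are such copies, or whether this bears on their missing calls, was not tested.

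Of the 8 complex I assembly factor genes, which encode proteins that help build the complex and are not part of it, 5 were called in all 6 lists and Ndufaf1, Ndufaf5 and Ndufaf6 in the same 4. Ndufaf8 was highest (99.5, 99.3 and 98.0 in aged, 99.9, 99.4 and 97.8 in young lists). Ndufaf4 was the lowest of those called in all 6, at 98.6, 94.5 and 51.4 among aged and 97.0, 8.5 and 93.0 among young lists.

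Complex II, or succinate dehydrogenase, also belongs to the citric acid cycle. Sdhb, its iron-sulphur subunit, had percentiles of 98.0, 98.2 and 99.4 among aged and 98.6, 99.8 and 99.0 among young lists. Sdha, the flavoprotein that binds succinate, had 93.8, 93.4 and 92.8 among aged and 97.0, 42.7 and 89.9 among young lists. Of the membrane anchors, Sdhd had 94.1, 95.5 and 92.8 among aged and 98.3, 55.6 and 93.5 among young lists. The other anchor, Sdhc, had 98.3 and 97.3 in aged replicates 1 and 2, no call in aged replicate 3, and 97.3, 88.8 and 98.1 in young lists. For all 4 genes the ranges of the ages overlapped.

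Complex III passes electrons from ubiquinol to cytochrome c. All 8 genes that fit the rule were called in all 6 lists, though not always at the same region. Uqcrh, the hinge protein, had percentiles between 98.2 and 99.2, and Uqcrq, a small membrane subunit, between 97.6 and 99.97. Uqcr11, another small subunit, had the lowest mean, with 78.8, 92.3 and 96.5 among aged and 93.1, 1.97 and 93.3 among young lists. The core protein gene Uqcrc1 stood at the same tied 1.97 in young replicate 2 and at 95.4 or above in the other lists.

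ATP synthase had 11 of 17 genes called in all 6 lists. Atp5g1, one of 3 genes for the same proton-carrying c subunit, was highest at 99.9, 99.8 and 99.8 among aged and 99.9, 99.1 and 99.9 among young lists. Atp5a1, the alpha subunit of the catalytic head, was the lowest of those called in all 6, at 89.1, 89.0 and 51.4 among aged and 94.5, 42.7 and 88.4 among young lists. Atp5b, the catalytic beta subunit, was at 97.2 or above in every list. Atp5d, the delta subunit, was called by its ends in aged replicates 1 and 2 (59.9 and 75.1) and young replicate 3 (29.7) alone.

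Complex IV, cytochrome c oxidase, had the lowest share of genes called in all 6 lists, 8 of 17 (47.1%). The 7 tissue-restricted isoforms in it held 3 of these 8, and the 10 other genes held 5. Cox7c, a ubiquitous small subunit, was at 99.1 or above in every list, and Cox4i2, described with the isoforms, had the lowest mean of the 8. Of the 6 genes called in fewer than 4 lists, 4 were tissue-restricted isoforms (Cox6a2, Cox7b2, Cox8b and Cox8c). The other two, Cox5a and Cox7a2, are made in nearly all cells. By its ends Cox5a was called in aged replicate 1 alone (12.9), and Cox7a2 in young replicates 1 and 2 (86.5 and 88.8).

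For Cox5a and Cox7a2 the windows at the annotated gene ends missed the promoter. In the promoter table the start of Cox5a lies 3904 bp inside the gene record and that of Cox7a2 11569 bp inside it. Within 1 kb of those starts, Cox7a2 had percentiles of 98.6, 98.7 and 95.6 among aged and 99.8, 99.96 and 99.5 among young lists. Cox5a had 94.3, 96.7 and 98.0 in aged lists, 97.3 and 97.2 in young replicates 1 and 3, and no peak in young replicate 2. Atp5d, whose first listed start lies 3577 bp inside the record, was called in all 6 lists by its starts, at 98.9, 96.9 and 99.6 among aged and 98.2, 98.9 and 98.0 among young lists. Atp5g3, another c subunit gene with a start 1138 bp inside the record, was called in 4 lists by its ends and in 6 by its start.

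The table holds starts for 75 of the 93 genes. Of these, 53 were called in all 6 lists by the start, against 36.1% of all genes with a start. Only 3 of the 75 were called in fewer than 4 lists (Ndufb4b, Cox7b2 and Cox8b), and all 3 were called in 0. By the starts, 0 genes were called by every aged list and no young one (0.134% of all genes with a start) and 0 by every young list and no aged one (0.201%). The 8 ubiquitous complex IV genes with a start were each called in all of the lists except young replicate 2, which called 5 of them. This use of the starts was added after the calls at gene ends had been seen.

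Isoforms made mainly in certain tissues were then set beside their ubiquitous partners. By gene ends, 8 such isoforms were called in 4, 5 and 3 cases among aged and 6, 4 and 4 among young lists. The 6 partners were called in 5, 5 and 5 cases among aged and 6, 5 and 5 among young lists. As shares, 37.5% to 75% of the isoforms were called per list, near the 54.1% to 70.6% of all genes, and 3 of the 8 (37.5%) were called in all 6 lists, near the 35.9% of all genes. The share called was higher for the partners by 20.8 to 45.8 percentage points in each of the 6 lists. With few genes on either side this is a description.

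The muscle isoforms differed among themselves. Cox8b was called in 0 lists, while its partner Cox8a had 99.6, 99.4 and 98.9 among aged and 99.8, 22.3 and 98.2 among young lists. Cox6a2 was called in aged replicate 2 (53.1) and young replicate 1 (65.0), and Cox6a1 in all lists but young replicate 2, with 94.6, 94.5 and 12.9 among aged and 97.3 and 91.4 among young replicates 1 and 3. Cox7a1, by contrast, was called in all 6 lists, at 64.0, 86.6 and 96.8 among aged and 97.2, 97.6 and 89.0 among young lists. Its peak in young replicate 2, at chr7:30184016-30184363, covered the annotated start. By the start windows its partner Cox7a2 was above it in 5 of the 6 lists, the exception being aged replicate 3 (95.6 against 96.8).

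Of the testis isoforms, Cox6b2 was called in all 6 lists, at 97.0, 85.5 and 85.3 among aged and 96.9, 61.5 and 91.0 among young lists. Its partner Cox6b1 was above it in 5 of the 6 lists, with 98.8, 93.9 and 96.4 among aged and 99.3, 55.6 and 96.6 among young lists. The Cox6b2 peak of aged replicate 1, at chr7:4752943-4753290, also lay within 1 kb of an end of Fam71e2, so the gene it belongs to cannot be told apart. Cox8c was called in young replicate 1 alone (65.0). Cox7b2 was called in young replicates 1 and 2 (47.4 and 42.7) and in no aged list, and by the start in none. Its ubiquitous partner Cox7b is on the X chromosome and outside the rule.

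Both isoforms linked to lung or low oxygen were called less strongly than their partners. Cox4i2 had 92.1, 70.8 and 75.8 among aged and 24.3, 73.1 and 59.6 among young lists, all below Cox4i1, which had 97.7, 96.2 and 96.0 among aged and 98.8, 99.8 and 97.2 among young lists. The strongest Cox4i2 peak by percentile, that of aged replicate 1 at chr2:152753997-152754208, lay inside the gene record. Ndufa4l2 was called in aged replicates 1 and 2 (58.4 and 82.0) and young replicate 3 (45.6), and Ndufa4 in all 6 lists (94.8, 91.4 and 51.4 in aged, 92.8, 99.4 and 91.5 in young). The peak of Ndufa4l2 in aged replicate 2 also lay at an end of Stac3.

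**Figure D3:**
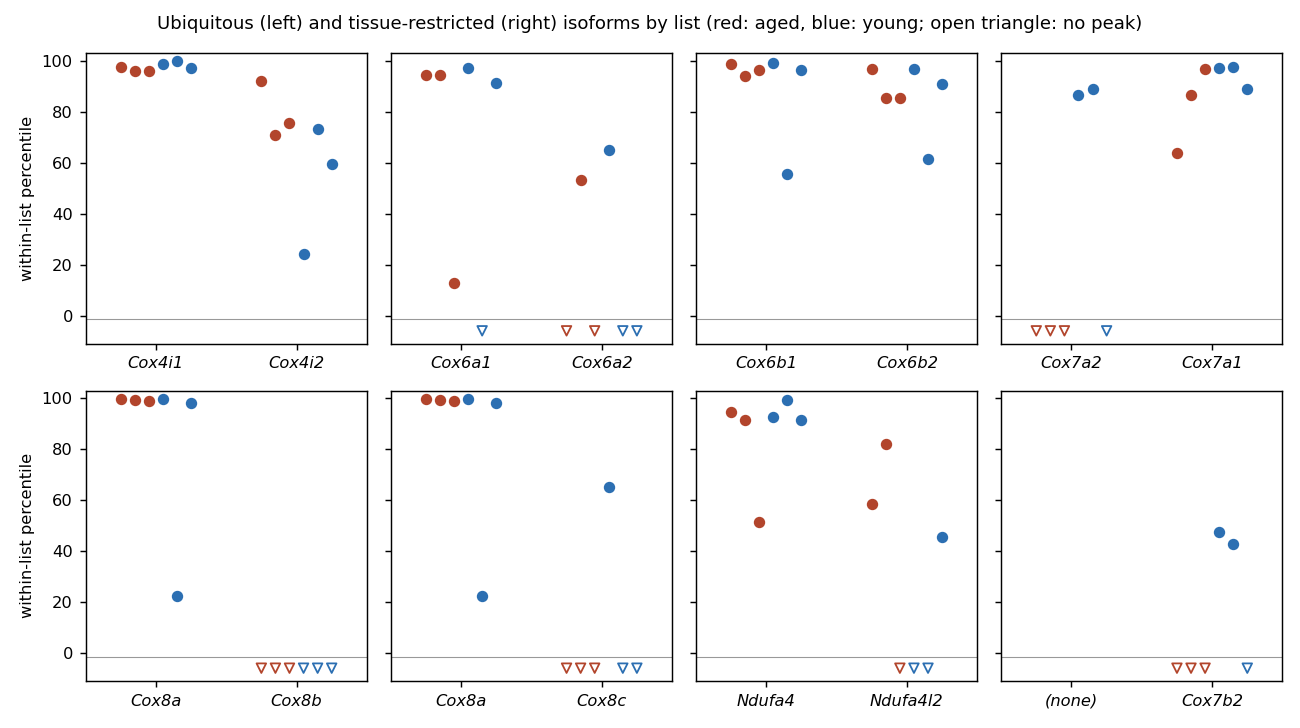
Within-list percentile of the strongest peak at the gene ends for each ubiquitous isoform (left in each panel) and its tissue-restricted counterpart (right), 1 point per list. Triangles mark lists with no peak, and Cox7b2 has no partner on chromosomes 1 to 19; Cox8b has none in any list, while Cox7a1, Cox6b2 and Cox4i2 have 1 in each.

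Marker genes of muscle and testis were set beside the isoforms with the same windows. Of 9 heart and muscle markers, 1 was called in all 6 lists (Ckm, muscle creatine kinase) and 7 in fewer than 4, and of 8 testis markers, 0 were called in all 6 and all 8 in fewer than 4. Over all genes, 35.9% were called in all 6 lists, and 11.3%, 11.1%, 9.65% and 8.08% in 0, 1, 2 and 3 lists. The lists called 2 to 7 of the muscle markers and 1 to 4 of the testis markers, where they called 54.1% to 70.6% of all genes.

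Aged and young lists were compared next. The number of respiratory chain genes called was the same on average, at 80.3 ± 9.81 (SD, n = 3) per aged list and 80.3 ± 9.87 (SD, n = 3) per young list. None of the 93 was called by every aged list and by no young one, a pattern of 0.213% of all genes, and none by every young list and no aged one, a pattern of 0.3% of all genes. With 3 lists per age an exact two-sided permutation test cannot go below 0.1. More aged than young lists called 11 of the genes, more young lists called 9, and 73 were called in equal numbers. Over all genes, 19.8% were called in more aged lists and 20.4% in more young lists. Without young replicate 3, Cox7a2 and Cox7b2 met the young-only rule by gene ends (1.59% of all genes did). By the start windows Cox7a2 was called in all 6 lists and Cox7b2 in 0.

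Most missing calls lay in 2 lists. Of the 83 genes called in the 4 other lists, 8 were missing in both aged replicate 3 and young replicate 2, among them the complex I subunits Ndufa9 and Ndufb10. A further 6 were missing in aged replicate 3 alone, such as Sdhc and Ndufs4, and 8 in young replicate 2 alone, such as Cox5b and Cox6c. Aged replicate 3 called 83.1% of the 83 and young replicate 2 called 80.7%, close to their shares of all genes called in those 4 lists (82.6% and 76.3%). Without these 2 lists the average was the same at both ages (difference 0). Limited to peaks with a q-value of at most 0.05, the lists called 82, 85 and 64 of the genes in aged and 79, 47 and 84 in young samples, a mean difference of 7, with young replicate 2 the lowest of the 6. The shares of all genes under this limit were 58.8%, 62.4% and 42.9% for aged and 53.7%, 38.9% and 62.4% for young samples, with the same 2 lists low.

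To compare strength without the length of the lists, the 7429 genes called in all 6 lists were ranked within each list by their strongest peak, and normal scores of the ranks were tested with limma. No gene passed an adjusted p of 0.05 in either direction (0% of 7429 each way; 275 genes, 3.7%, had an unadjusted p under 0.05). Of the 61 respiratory chain genes tested, 0 passed and 1 had an unadjusted p under 0.05. In simulated data the test did not recover shifts of the size of these 61 genes' differences, so the absence of calls does not show that their ranks were alike. These 61 entered because they were called everywhere and do not stand for all 93. Their median difference, aged minus young, was -0.13 on the normal score scale, against -0.01 for all genes tested, and 23 of 61 had a higher mean in aged lists, against 49.1% of all genes tested.

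The genes with the largest differences are named for their size only. Ndufa12, an accessory subunit of complex I, stood at 18.7%, 41.3% and 23.6% of the rank order among aged and 77.9%, 56.0% and 52.0% among young lists. The ages did not overlap, and the score difference was -0.93 (SE 0.412, limma adjusted p 0.944). Cox4i1 stood at 51.1%, 46.9% and 48.9% among aged and 64.2%, 94.6% and 63.5% among young lists, again without overlap (-0.80, SE 0.437, limma adjusted p 0.944). For Uqcrq the ages overlapped, with 74.4%, 82.1% and 66.6% among aged and 94.6%, 99.0% and 68.3% among young lists (-0.80). In the other direction Uqcrc1 (0.90) and Cox8a (0.89) each had their low value in young replicate 2, at 0.5% and 6.6% of the rank order. Ndufa8 (0.71) stood at 71.6%, 14.9% and 23.6% among aged and 12.6%, 27.5% and 5.7% among young lists, which overlap. Its peak in aged replicate 1 lay at the other end of the gene, 13732 bp from the start. That peak had percentile 98.9, against 94.9 for the strongest peak at the start in that list. In aged replicate 2 the values were 90.9 by the ends and 83.4 at the start. The ranks of Ndufa8 therefore do not all come from the same region. Over the 61 genes, all aged ranks lay below all young ranks for 5 (Ndufs7, Ndufa12, Atp5a1, Uqcrc2 and Cox4i1; 4.74% of all genes tested) and above them for 1 (Ndufb1; 4.99% of all genes tested).

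**Figure D4:**
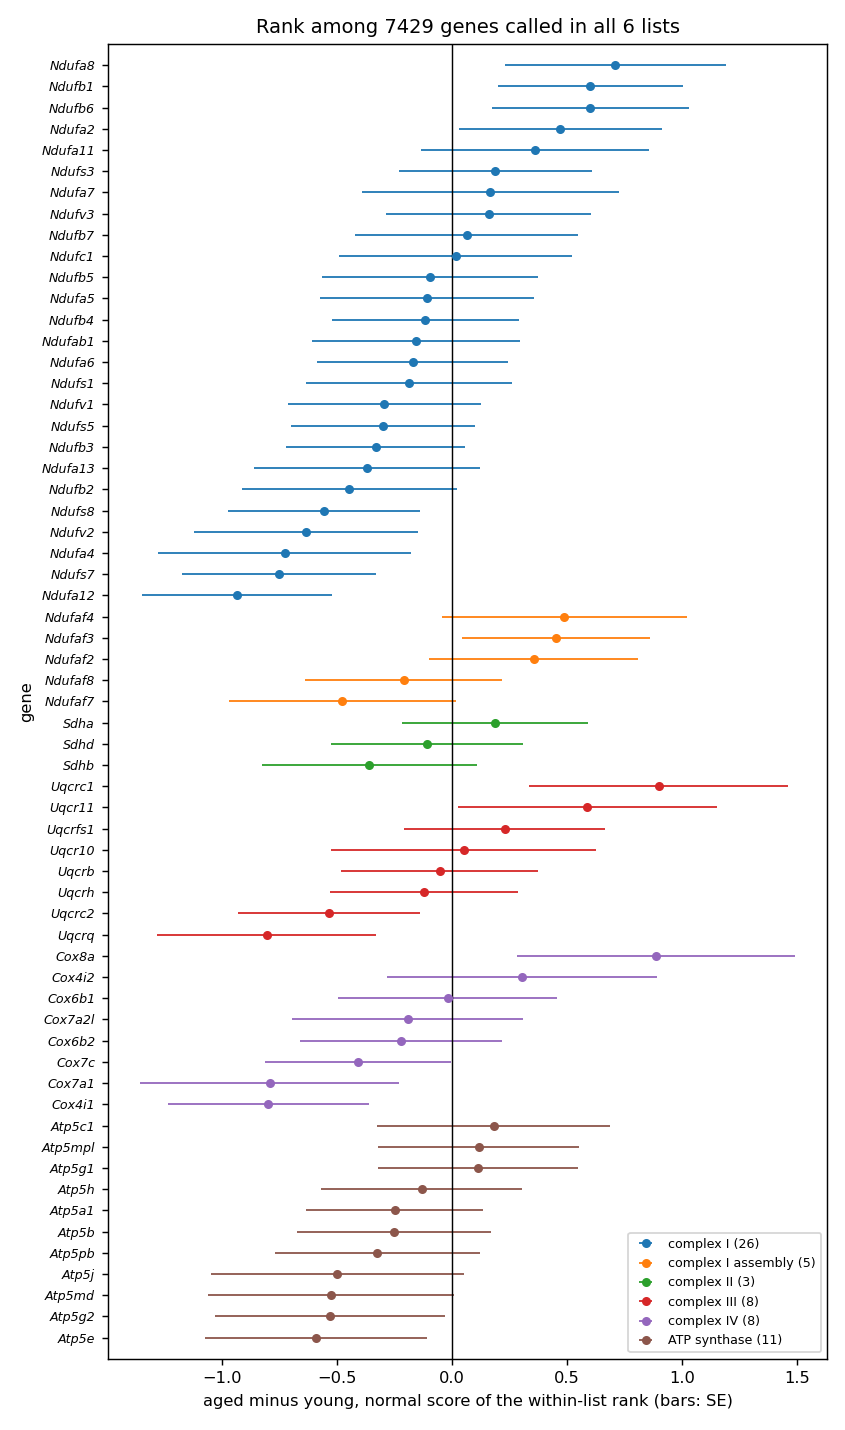
Difference between aged and young lists in the normal score of the within-list rank for the 61 respiratory chain genes called in all 6 lists, by complex, with limma standard errors as bars. The points lie on both sides of 0, from -0.93 for Ndufa12 to 0.90 for Uqcrc1.

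Peaks were at the starts of these genes more often than at their other ends. Of 66 genes longer than both windows with a known strand, 46 had a peak at the start in all 6 lists and 1, Ndufb6, at the other end. For all such genes, 36.0% had the start and 2.09% the other end called in all 6. In single lists, 50 to 63 of the 66 had a peak at the start and 6 to 16 (9.09% to 24.2%) at the other end, where 13.9% to 24.8% of all such genes had one at the other end. Young replicate 2 called 4 of the 66 at the other end alone. The region at the other end of Ndufb6 also lies at ends of Topors and Smim27. In the lists other than young replicate 2, the summit of the strongest peak lay at a median distance of 38.5 to 64 bp from the start on either side, and 84.7% to 90.3% of the summits lay within 250 bp of it, where 71.9% to 78.9% of those of all genes did. In young replicate 2 the median was 146.5 bp and 66.1% lay within 250 bp, against 58.9% for all genes. Of the 90 genes called in any list, 41 had their strongest peak within 1 kb of an end of another protein-coding gene. The peak was taken from the list where it ranked highest. The share over all genes was not counted, so this is not shown to be particular to these genes. Pairs sharing such a peak include Ndufb5 with the mitochondrial ribosomal gene Mrpl47, Sdhd with the import chaperone gene Timm8b, Ndufs6 with Mrpl36 and Cox4i1 with Emc8. Their peaks cannot be assigned to 1 gene of the pair.

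**Figure D5:**
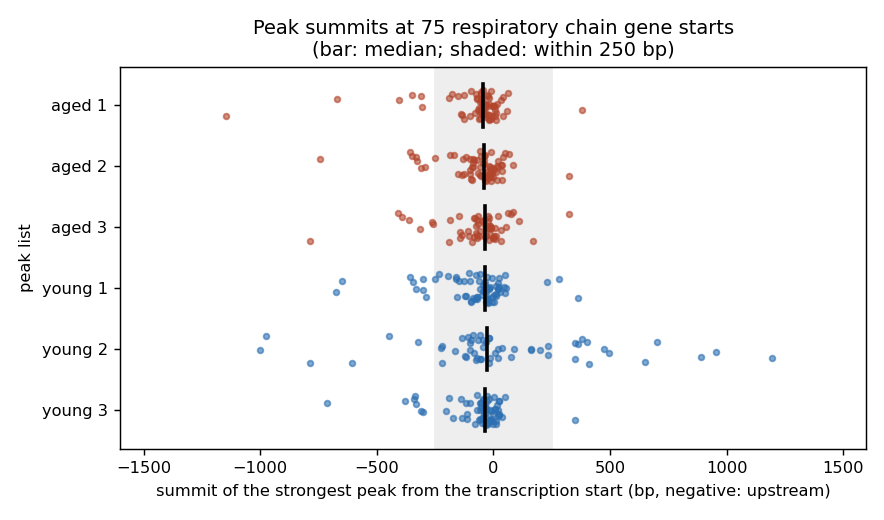
Position of the summit of the strongest peak relative to the transcription start at the 75 genes with a listed start, 1 row per list, with negative values upstream, signed medians as bars and the 250 bp limit shaded. Summits crowd at the start in 5 lists and are more scattered in young replicate 2.

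Sequence features of the promoters of the 75 genes with a start, which the choice of genes did not use, were counted without a test. A motif was counted for a gene when any of its listed starts carried it. The ETS motif CCGGAAG was in 25.3% of the 75 genes, against 13.3% of the 16457 genes with a promoter entry. The NRF1 core GCATGC was in 20% against 9.34%, and the YY1 motif AAGATGG in 16% against 7.26%. GGGCGG was in 45.3% against 50.3%, CCAAT in 42.7% against 42.3% and TATAAA in 10.7% against 15%. The median number of CG dinucleotides per gene, taking the highest count over its listed starts, was 20 (2 to 43) against 15 over all genes. The 4 tissue-restricted isoforms in the table (Cox6b2, Cox7a1, Cox7b2 and Cox8b) had none of the ETS, NRF1 or YY1 matches and 2 to 10 CG dinucleotides. CCAAT was in 3 of them, GGGCGG in 2 and TATAAA in 2. Of the other 71 genes, 26.8% had the ETS motif, 21.1% the NRF1 core and 16.9% the YY1 motif, so most lacked each. The ubiquitous partners Cox7a2 and Ndufa4 also had none of these matches.

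Other genes of the pathway were counted in the same way. Of 50 listed genes for cytochrome c, assembly, mitochondrial DNA and nuclear regulation, 31 had a peak in all 6 lists, where 35.9% of all genes did, and 3 in fewer than 4. Of the 8 nuclear regulators, Gabpb1 was called in aged replicates 1 and 3 (12.9 and 2.84) and young replicate 1 (65.0) alone. Ppargc1b and Pprc1 were called in 5 lists. The other regulators, Nrf1, Gabpa, Esrra, Yy1 and Ppargc1a, were called in all 6, Ppargc1a at percentiles of 33.5 to 93.0. So were 8 of 9 genes of mitochondrial DNA and transcription, such as Tfam, which packages mitochondrial DNA, and the exception was Polg, its polymerase, called in 1 young list. Of 25 assembly genes of complexes II to V, 13 were called in all 6, and Atpaf2, a chaperone for ATP synthase, was called in 1 list of each age. Cycs, somatic cytochrome c, was called in all 6 lists, and Cyct, its testis counterpart, in 1 young list.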

How the data were processed

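Peak lists of 6 ATAC-seq samples were used, grouped and numbered by their titles. Bowtie2, SAMtools, Picard, MACS2 and the mm10 build are named in the submitters' processing notes. Their versions, roles and settings, and any shift of reads for the transposase, are not given in the sources used here. Each deposited list gives, per peak, a score, a fold enrichment (a ratio over the background of the same sample), a summit, a -log10 p and the matching -log10 q. These are the authors' values, called per sample, and depend on a depth that is unknown. The deposited summit offset was used for summit positions and the score was not used.

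Rows repeating an interval were merged to distinct peaks on chromosomes 1 to 19 and X, keeping the highest -log10 p. Genes and starts came from RefSeq tables on GRCm38.p6, with exons and introns not resolved. The genes, lists and tests were chosen with earlier results of these data known. Genes named are all tissue-restricted isoforms and partners, members called in fewer than 4 lists, complex II, the extremes of each complex and the 3 largest rank differences each way, and others were named after their values were seen. The values of 1 gene are not reported here, though it is in the counts. The window has a limit at 1 kb: the peak of Ndufs4 in young replicate 2 lay 988 bp from the end and was counted (percentile 42.7), and that of Atp5g3 in aged replicate 3 lay 1015 bp away and was not (75.8). Ranks were tested with limma 3.58.1 in R 4.3.3 and adjusted by Benjamini-Hochberg over all 7429 genes. The rank test was checked on simulated data, where it recovered only shifts larger than any difference among the genes reported. An overlap of 1 bp sufficed for a call. Alternatives were a q-value limit, the strongest 100000 peaks of each list, a 500 bp window, summits in the window, the start end alone, the promoter table starts, fold enrichment for ranks, genes called in at least 5 lists, a replicate block and lists left out.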

Additional observations from a re-analysis of the deposited data

How the results depend on the processing

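Counts of the 93 genes were recomputed with peaks at a q-value of at most 0.05, the strongest 100000 peaks of each list, windows of 500 bp, summits in place of overlap, and the start end alone. The number called in all 6 lists was 61 (35.9% of all genes) and 42 at a q-value of at most 0.05 (25.2% of all genes). With the strongest 100000 peaks it was 40 (25.6% of all genes), and young replicate 2 called 44 (36.8% of all genes in that list). With 1 list left out, 61 to 69 were called in every remaining list (36.1% to 44.5% of all genes). Over the 4 lists without aged replicate 3 and young replicate 2, a choice made after seeing the data, 83 of 93 were called (53.9% of all genes). Genes called at 1 age alone stayed at 0 for aged and ran from 0 to 2 for young with 1 list left out. The shares of all genes were then 0.344% to 0.818% for aged and 0.421% to 1.59% for young. The difference in genes called per list, aged minus young, was 0, and -5.67 (without young replicate 2) to 5.67 (without aged replicate 3) with 1 list left out. It was 7 at a q-value of at most 0.05 and 8 with the strongest 100000 peaks. Tissue-restricted isoforms as a group were called 31.9 percentage points less often than the ubiquitous partners as a group, 29.2 to 34.2 with 1 list left out. By the promoter table starts the difference was 46.7, where 4 isoforms and 5 partners had an entry. The sides are not matched pairs: Cox7b2 has no partner in either count, and the isoforms of Cox6a1 and Ndufa4 had no start entry. The limma count was 0 genes under every alternative run, with 135 to 478 genes at an unadjusted p under 0.05 with 1 list left out and 193 by fold enrichment. Of the 61 respiratory chain genes, 1 had an unadjusted p under 0.05, against 6 without young replicate 2 and 9 without both low lists (4.68% of all genes tested), with 0 past the adjusted p. Same-numbered aged and young samples share the number after "exp" in their titles, which the labels do not explain. Their deviations from the group means correlated at 0.03, -0.15 and -0.05, and those of differently numbered samples at -0.10 to 0.20. With 3 lists per age these values cannot show whether samples sharing a number belong together. The numbers were not taken to pair the samples. With the replicate number as a block, limma called 0 genes (249 at an unadjusted p under 0.05).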

Other observations

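The subunit genes on the X chromosome, which the choice of genes leaves out, were called at their ends in most lists. Ndufb11, an accessory subunit of complex I, was called in all 6 lists, at percentiles of 97.4, 94.4 and 91.1 among aged and 95.1, 73.1 and 91.2 among young lists. Ndufa1, another complex I subunit, was at 71.6 and 53.1 in aged replicates 1 and 2 and at 65.0, 88.8 and 77.5 in young lists. Cox7b, the ubiquitous partner of Cox7b2, was at 95.1 and 45.0 in aged replicates 1 and 2 and at 91.2, 22.3 and 82.2 in young lists. Ndufa1 and Cox7b had no call in aged replicate 3. For these 3 genes the percentiles of aged and young lists overlapped.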
